A study of Mus musculus with 40 samples.

Results

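The 10 genes described here carry glucose into the cell and turn it into lactate: the transporters *Slc2a1* and *Slc2a4*, the hexokinases *Hk1* and *Hk2*, the phosphofructokinases *Pfkm* and *Pfkp*, the phosphoglycerate mutase *Pgam2*, the pyruvate kinase *Pkm*, and the lactate dehydrogenases *Ldha* and *Ldhb*. They were chosen by symbol, as 10 of the 17646 genes listed for male hearts and 10 of the 17223 listed for female hearts, and all 10 passed the filter on low values in both sexes. With the values as deposited, *Ldha* was higher in induced hearts than in controls at every week in both sexes. *Slc2a1* was higher at every week in males and at 6 weeks in females. On the same values *Ldha* was called in no comparison with uninduced transgenic hearts. Under the other scaling given below it was called higher than in those hearts at 1 week in both sexes. *Hk2* and *Pfkm* were lower at every week in both sexes, and *Slc2a4* and *Ldhb* at every week in females. *Pgam2*, also of muscle, was called in no comparison with controls. Which members were called depended on how libraries were scaled, as given below. *Hk2* stood at 0.578 to 0.699 of its control level on the log-scale fit.

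Glucose enters cells by facilitated transport, is phosphorylated by a hexokinase, and is then broken down to pyruvate, which is either oxidised in mitochondria or reduced to lactate. Several steps have paralogous enzymes, one typical of striated muscle and one found in most tissues. The adult heart draws most of its energy from fatty acids and is known for its insulin-responsive transporter GLUT4, encoded by *Slc2a4*, and for the heart type of lactate dehydrogenase, encoded by *Ldhb*.

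Poly(A) RNA sequencing was carried out on 40 mouse hearts, 20 male and 20 female. CM-Il11-Tg mice carry 1 copy each of a *Rosa26-Il11* transgene and of the α-MHC-MerCreMer transgene (MCM), in which a cardiomyocyte promoter drives a Cre that tamoxifen activates, and their hearts were taken 1, 3 or 6 weeks after tamoxifen. The controls, labelled WT, were tamoxifen-treated littermates with MCM but without the *Rosa26-Il11* transgene, labelled as baseline with no week given, so time after tamoxifen was not matched. A further group, called uninduced here, was CM-Il11-Tg without tamoxifen, so it differed from the other transgenic groups in tamoxifen as well as in *Il11*. All mice were adults, and the MCM transgene was shared by controls and CM-Il11-Tg mice. Each group had 4 libraries, except male controls and males at 6 weeks with 3 each, because 2 male libraries carried labels that contradicted each other on genotype and were kept out of every comparison.

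*Il11*, the targeted gene, was listed at 0 to 0.166 in controls, at 15.5 to 49.1 in uninduced hearts and at 328 to 819 in the induced hearts, in normalised counts scaled to library depth (CPM). The libraries held 16663513 to 65333832 reads on listed genes in males and 19147947 to 30929192 in females, and the member with the fewest reads in any library, *Slc2a1*, had 203. Cardiomyocyte markers were all detected, 12 of 12 in each sex. Several cell type and quality markers moved with the induced groups. Fibroblast markers were called higher for 7 or 8 of 8 genes, with sums of 4673 to 12154 in induced hearts against 720.1 to 1152 in controls, and macrophage markers for 10 of 10, with sums of 875 to 1393 against 219.6 to 388. Cardiomyocyte markers were called lower for 3 to 7 of 12, with sums of 41651 to 69111 against 50961 to 78724 in the deposited values. As a share of reads they overlapped the controls, at 3.90% to 8.10% against 6.14% to 6.60% in males and 4.42% to 6.16% against 4.27% to 6.01% in females. The 13 mitochondrially encoded transcripts took 6.95% to 25.7% of reads against 24.6% to 30.1%. Endothelial markers were called lower for 3 to 7 of 10, with sums of 708 to 1065 against 1083 to 1292. Erythroid markers were called higher in females at 1 week alone, for 5 of 5, with sums of 3131 to 8346 against 1396 to 2325. Skeletal muscle markers were called higher for 1 or 2 of 4 tested and lower for 0, with sums of 52.4 to 206 against 13.0 to 24.9. They did not move together: the highest log2 difference of a comparison was 2.32 to 3.15, the lowest -0.73 to -0.10 and the median -0.20 to 0.87. Neutrophil markers were called higher for 2 or 3 of 4 tested, with 1 lower in males at 3 weeks, and sums of 17.9 to 59.0 against 1.54 to 5.99. Macrophage markers were also called higher in uninduced females, for 10 of 10, against 0 of 10 in uninduced males. Among the markers with deposited values, none was at 0 in any group. Only 4 of 9 skeletal muscle and 4 of 6 neutrophil markers had such values, and markers without them could not be counted. The part of these shifts in the results below was not tested. In bulk tissue fewer cells of a type and less RNA per cell cannot be told apart.

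Promoter windows were available from RefSeq (GRCm38.p6) for 9 of the 10 members, in 15 windows that run from 250 bases before to 50 after an annotated start. The 4 shown belong to the pair of members that were called higher in males at every week, *Slc2a1* and *Ldha*, and to *Hk2* and *Ldhb*, which were called lower in both sexes. Capitals mark matches on either strand to the HIF core ACGTG, the E-box CACGTG, which contains that core, the GC box GGGCGG and the TATA box TATAAA. A search for the STAT palindrome TTCNNNGAA marked none in these windows. The windows of *Pfkm*, also called lower in both sexes, are not shown.

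Ldha, window 1, chr7:46845554-46845853, + strand: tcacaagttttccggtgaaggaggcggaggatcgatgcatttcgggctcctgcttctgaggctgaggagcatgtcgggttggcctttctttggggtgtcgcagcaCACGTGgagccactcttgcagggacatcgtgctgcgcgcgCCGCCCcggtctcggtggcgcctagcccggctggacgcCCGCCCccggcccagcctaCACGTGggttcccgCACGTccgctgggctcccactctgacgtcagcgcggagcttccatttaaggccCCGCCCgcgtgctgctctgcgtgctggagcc
Slc2a1, chr4:119108495-119108794, + strand: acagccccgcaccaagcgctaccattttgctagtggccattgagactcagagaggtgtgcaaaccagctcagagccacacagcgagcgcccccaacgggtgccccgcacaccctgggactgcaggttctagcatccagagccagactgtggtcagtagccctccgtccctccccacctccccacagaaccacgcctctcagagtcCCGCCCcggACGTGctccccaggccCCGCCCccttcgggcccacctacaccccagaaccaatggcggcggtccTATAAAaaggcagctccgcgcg
Hk2, chr6:82774405-82774704, - strand: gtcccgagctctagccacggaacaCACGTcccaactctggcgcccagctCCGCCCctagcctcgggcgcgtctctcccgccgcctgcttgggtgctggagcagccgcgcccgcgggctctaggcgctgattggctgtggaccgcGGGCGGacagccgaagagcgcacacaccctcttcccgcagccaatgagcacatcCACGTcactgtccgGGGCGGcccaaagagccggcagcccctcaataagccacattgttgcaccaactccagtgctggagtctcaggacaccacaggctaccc
Ldhb, chr6:142507908-142508207, - strand: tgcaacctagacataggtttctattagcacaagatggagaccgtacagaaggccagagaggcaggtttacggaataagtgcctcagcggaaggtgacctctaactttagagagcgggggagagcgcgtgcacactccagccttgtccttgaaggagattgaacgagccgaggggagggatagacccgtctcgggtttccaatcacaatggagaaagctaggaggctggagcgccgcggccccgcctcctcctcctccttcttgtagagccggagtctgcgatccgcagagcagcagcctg

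The *Ldha* window shown held 5 matches to the HIF core counted over both strands, 4 of them within its 2 E-boxes, and 3 GC boxes. The second window of *Ldha*, not shown, held no match to any of the motifs. The *Slc2a1* window held 1 HIF core, 2 GC boxes and 1 TATA box. The *Hk2* window held 2 HIF cores and 3 GC boxes, and the *Ldhb* window held no match to any of the motifs. Over all 15 member windows the HIF core was found in 7, against 19.6% of all 32851 windows. Those 7 windows belonged to 6 of the 9 genes, and some genes have more than 1 window. Their GC content ran from 36.7% to 67.3%, against a median of 52.7% over all windows, and the share of all windows was not matched for it. The GC box was found in 5 member windows (35.7% of all windows), the E-box in 2 (7.15%), the STAT palindrome in 1, of *Pfkm* (8.30%), and the TATA box in 1 (13.6%). A match describes the letters in the window and not a bound site.

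In control hearts the levels were compared per kilobase of annotated exon. The length used joins all annotated exons of a gene, 989 bases in *Pgam2*, 13417 in *Pkm* and 16462 in *Pfkp*. It can exceed the length of the transcripts expressed, so the order below depends on the annotation. In males the mean CPM per kilobase ran from *Pgam2* at 349.7 ± 37.3 (SD, n = 3) through *Ldhb* at 239 ± 18.9, *Pfkm* at 102 ± 8.71, *Ldha* at 89.3 ± 4.86, *Pkm* at 77.2 ± 1.54, *Slc2a4* at 61.0 ± 5.98, *Hk2* at 40.8 ± 2.94 and *Hk1* at 20.1 ± 1.94 to *Pfkp* at 3.83 ± 0.296 and *Slc2a1* at 2.52 ± 0.613. In female controls (n = 4) the order was the same except that *Ldha*, at 111 ± 4.95 CPM per kilobase, stood above *Pfkm*, at 94.3 ± 7.84. Neighbours in that order did not overlap in males. In females *Pkm* (63.9 to 80.9 CPM per kilobase) overlapped *Slc2a4* (57.7 to 69.8), and *Pfkp* (3.45 to 4.51) overlapped *Slc2a1* (2.40 to 3.60). The muscle- or heart-type genes of 4 of the pairs, *Slc2a4*, *Hk2*, *Pfkm* and *Ldhb*, were thus more abundant per kilobase than their broadly expressed partners *Slc2a1*, *Hk1*, *Pfkp* and *Ldha* in control hearts of both sexes.

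**Figure D1:**
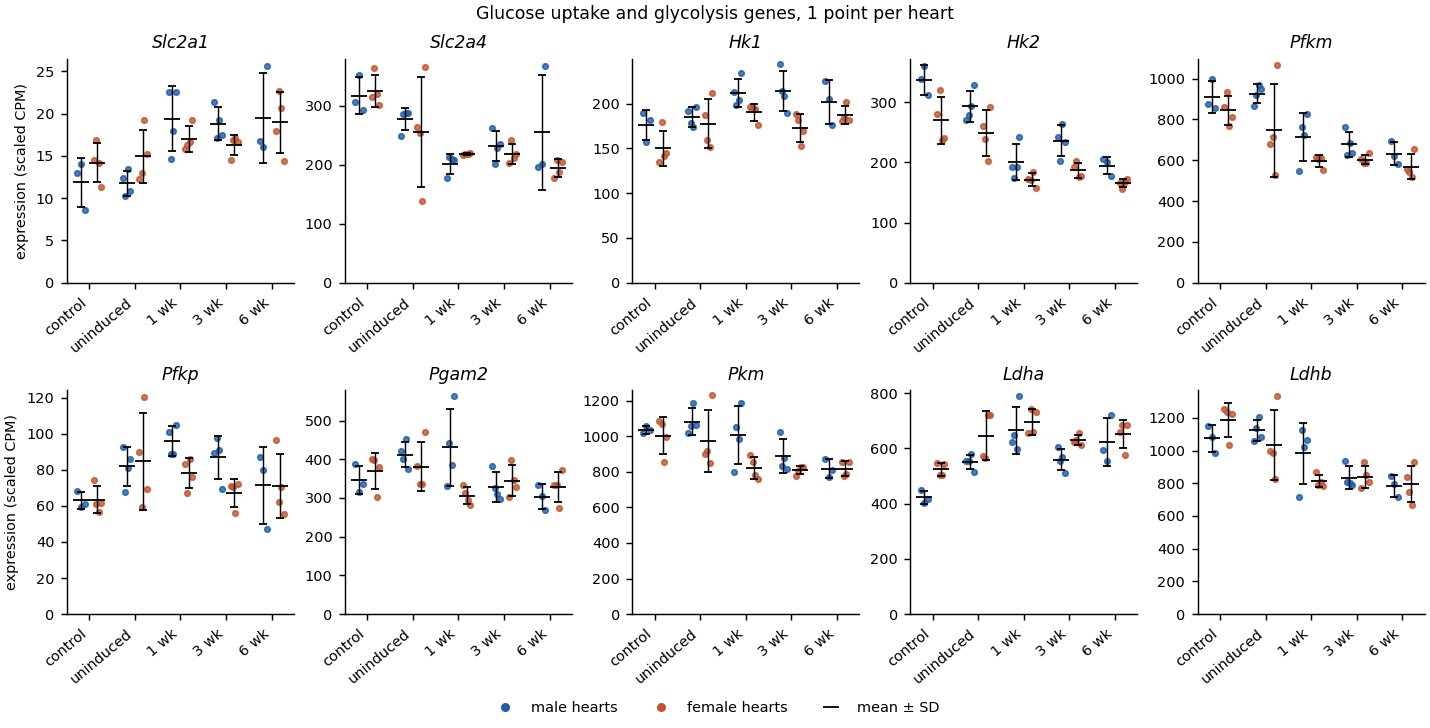
Normalised values (CPM, linear axes from 0) of the 10 genes in every placed library, by group, males in blue and females in orange, with 1 point a heart and bars at the mean ± SD of a group. *Hk2* in induced hearts lies below every control of its sex, and *Ldha* in induced hearts lies above every control of its sex.

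The question put to the data was how these genes differed from tamoxifen-treated controls 1, 3 and 6 weeks after induction. Differences were tested on log2(CPM + 0.5) with limma across all tested genes of a sex, and a gene was called when its Benjamini-Hochberg adjusted p was under 0.05. In males 3 members were called higher and 3 lower at 1 week, where 18.9% of all genes were called higher and 14.6% lower. At 3 weeks 2 were higher and 2 lower (all genes 13.2% and 8.10%), and at 6 weeks 2 were higher and 3 lower (16.2% and 10.9%). In females 2 were higher and 4 lower at 1 week (15.3% and 13.1%), 1 was higher and 5 lower at 3 weeks (16.8% and 14.5%), and 3 were higher and 5 lower at 6 weeks (21.7% and 21.0%). Calls thus took 4 to 8 of the 10 members, and whether that share differs from these backgrounds was not tested. Libraries were labelled as separate replicates, each with a name of its own and taken here as 1 heart, so p-values measure the spread between hearts.

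Which members were called depended on how libraries were scaled. When each library was instead scaled to all its reads on listed genes, a scaling chosen after the data were seen, the median log2 difference of all genes stood at 0.33, 0.23 and 0.16 in males at 1, 3 and 6 weeks and at 0.28, 0.30 and 0.33 in females. Member calls then became 5 higher and 0 lower, 4 and 0, and 2 and 1 in males, and 4 and 1, 3 and 0, and 4 and 1 in females. The shares of all genes called under this scaling are not set beside them, so these counts are not read as particular to the members. Read against the median of all genes, the members' log2 differences moved by 0.01 to 0.05 between the scalings. Rescaling moves all genes of a library by nearly the same log2 amount, so this small shift follows from the method and is no check of the calls. The changes below are on the deposited scaling, in which that median lay within 0.02 of 0.

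**Figure D2:**
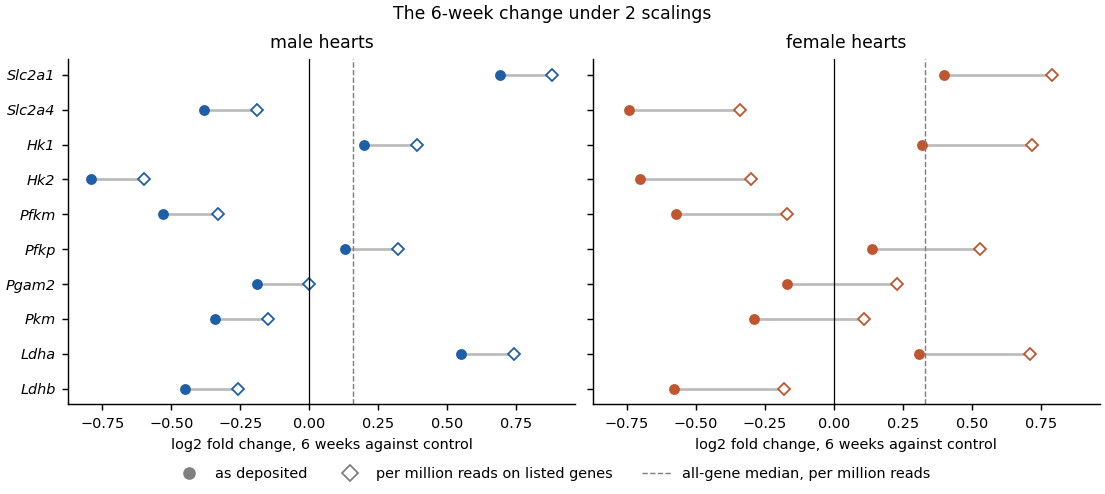
Log2 fold change of each gene at 6 weeks against control in each sex, with filled points for the deposited scaling, open diamonds for scaling to all reads on listed genes, and a dashed line at the median of all tested genes under the second. Every gene shifts to the right by a similar distance, and *Pkm* and *Pgam2* in females pass from below 0 to above 0.

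*Slc2a1* encodes GLUT1, the transporter present in most cell types (gene ENSMUSG00000028645, GRCm39 chr4:118965908-118996365). Male controls had 8.56, 13.0 and 14.0 CPM. Males at 1 week had 14.6, 17.9, 22.5 and 22.6 CPM, at 3 weeks 17.1, 17.5, 19.2 and 21.4 CPM, and at 6 weeks 16.1, 16.8 and 25.6 CPM. Every induced male heart lay above every male control. The rise was 0.70 ± 0.19 (log2, SE; adjusted p = 0.00784, limma) at 1 week, 0.67 ± 0.19 (adjusted p = 0.0147) at 3 weeks and 0.69 ± 0.20 (adjusted p = 0.0148) at 6 weeks. These calls rested on control replicate 4, the deepest library and the one with the lowest value: without it they were 0.49 (adjusted p = 0.0696), 0.46 (0.115) and 0.49 (0.0984), and without the 25.6 of 6 weeks replicate 4 the last was 0.48 (0.0824). Female hearts overlapped, at 11.3 to 16.9 CPM in controls and 14.4 to 22.7 CPM after induction. On the deposited scaling the female difference passed the test only at 6 weeks, at 0.40 ± 0.15 (adjusted p = 0.0336), and that call was lost without any 1 of 5 libraries (highest adjusted p = 0.126). Under scaling to all reads *Slc2a1* was called higher in females at every week, at 0.60, 0.55 and 0.79 (adjusted p = 0.00335, 0.00611 and 0.000205, limma). It was also called in males at every week under that scaling, at 1.04, 0.92 and 0.88. Without control replicate 4 the male counts were 2 higher and 2 lower, 0 and 2, and 1 and 3 at 1, 3 and 6 weeks.

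*Slc2a4*, the gene of the insulin-responsive transporter GLUT4 (ENSMUSG00000018566, chr11:69831006-69839070), moved the other way. Female controls had 301, 315, 320.5 and 364 CPM. Females at 1 week had 217, 218, 218 and 219.8 CPM, at 3 weeks 203, 212, 218 and 242 CPM, and at 6 weeks 178, 187, 205 and 209 CPM. No induced female heart reached the lowest control. *Slc2a4* fell by 0.57 ± 0.18 (log2, SE; adjusted p = 0.0203) at 1 week, by 0.57 ± 0.18 (adjusted p = 0.0185) at 3 weeks and by 0.74 ± 0.18 (adjusted p = 0.00244) at 6 weeks. Without control replicate 2, the highest, the first and second of these missed the threshold at -0.51 (adjusted p = 0.0637) and -0.52 (0.0568). Male controls had 293, 307 and 353 CPM and males at 1 week 177, 208, 209.7 and 213 CPM, a fall by 0.65 ± 0.17 (adjusted p = 0.00520) that held without any 1 library. At 3 weeks males had 201 to 263 CPM, below all controls, and the difference of -0.45 ± 0.17 missed the threshold (adjusted p = 0.0591). Males at 6 weeks had 196, 201 and 368 CPM. The 368 of replicate 4, which also had the highest erythroid marker sum of all placed libraries (15960.1), lay above every control, and the difference of -0.38 ± 0.18 (adjusted p = 0.125) was not called. Without that library it was -0.67 (adjusted p = 0.000541), and the male counts became 4 higher and 3 lower at 1 week, 4 and 3 at 3 weeks and 2 and 3 at 6 weeks. None of the *Slc2a4* calls passed under scaling to all reads, where the female differences were -0.22, -0.22 and -0.34.

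*Hk2* encodes the hexokinase of insulin-sensitive muscle (ENSMUSG00000000628, chr6:82699740-82751469), and was the only member called lower in all 6 comparisons whose every call held without any 1 library. Male controls had 312, 338 and 361 CPM. Males had 174, 192, 192 and 243 CPM at 1 week, 202, 234, 243 and 264 CPM at 3 weeks and 178, 200.3 and 206 CPM at 6 weeks. Female controls had 238, 240.2, 281 and 321 CPM, and the 12 induced female hearts lay between 156 and 202 CPM. The groups did not overlap at any week in either sex. In males *Hk2* fell by 0.76 ± 0.12 (log2, SE; adjusted p = 9.84e-05), by 0.52 ± 0.12 (adjusted p = 0.00405) and by 0.79 ± 0.13 (adjusted p = 0.000141) at 1, 3 and 6 weeks. In females it fell by 0.65 ± 0.11 (adjusted p = 0.000112), by 0.52 ± 0.11 (adjusted p = 0.000874) and by 0.70 ± 0.11 (adjusted p = 3.21e-05). Under scaling to all reads the differences kept their sign, at -0.17 to -0.60, and 3 of the 6 passed the test: males at 6 weeks and females at 1 and 6 weeks.

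*Hk1*, the hexokinase of most other tissues (ENSMUSG00000037012, chr10:62104621-62215687), was called higher in females at 1 and 6 weeks and at no week in males on the deposited scaling, and the difference between the sexes was not tested. Female controls had 135, 141, 145 and 179 CPM, females at 1 week 176, 194, 195 and 196 CPM, and females at 6 weeks 180.0, 182, 185 and 202 CPM. A single control at 179 CPM reached into the range of 1 week. *Hk1* rose by 0.35 ± 0.11 (adjusted p = 0.0159) at 1 week and 0.32 ± 0.11 (adjusted p = 0.0177) at 6 weeks. Without control replicate 1 these were 0.30 (adjusted p = 0.0587) and 0.28 (0.0603), and without 6 weeks replicate 3 the second was 0.29 (0.0506). In males the differences were 0.27 ± 0.11, 0.28 ± 0.11 and 0.20 ± 0.12 at 1, 3 and 6 weeks (adjusted p of 0.0688, 0.0841 and 0.237), and none was called, nor was that of females at 3 weeks (0.21, adjusted p = 0.145). *Hk1* was called higher under scaling to all reads in males at 1 and 3 weeks (0.63 and 0.54, adjusted p = 0.00342 and 0.0147) and in females at every week (0.70, 0.56 and 0.72).

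*Pfkm*, the muscle phosphofructokinase of the committed step of glycolysis (ENSMUSG00000033065, chr15:97990451-98031417), fell in both sexes. Female controls had 770.4, 814, 863 and 934 CPM. Females at 1 week had 552, 608, 612 and 617 CPM, at 3 weeks 585, 588, 604 and 635 CPM, and at 6 weeks 519.6, 544, 556 and 657 CPM. Every induced female heart lay below every female control. *Pfkm* fell by 0.50 ± 0.14 (adjusted p = 0.0124), by 0.48 ± 0.14 (adjusted p = 0.0138) and by 0.57 ± 0.14 (adjusted p = 0.00331), and these calls held without any 1 library. Male controls had 855, 878 and 1000.0 CPM, and the 11 induced male hearts 549 to 826 CPM. In males it fell by 0.36 ± 0.13 (adjusted p = 0.0437), by 0.43 ± 0.13 (adjusted p = 0.0273) and by 0.53 ± 0.14 (adjusted p = 0.0101). The male calls were fragile: the first was lost without any 1 of 11 libraries (highest adjusted p = 0.183), the second without any 1 of 4 (0.141), and the third without control replicate 3, at -0.46 (0.0564). No *Pfkm* call passed under scaling to all reads, where the female differences were -0.15, -0.13 and -0.17.

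*Pfkp*, the platelet-type phosphofructokinase of non-muscle tissues (ENSMUSG00000021196, chr13:6629798-6698970), was called only in males at 1 week on the deposited scaling. Under scaling to all reads it was also called higher in males at 3 weeks (0.72, adjusted p = 0.0173) and in females at 1 and 6 weeks (0.64 and 0.53, adjusted p = 0.00889 and 0.0206). Male controls had 59.3, 61.3 and 68.5 CPM, and males at 1 week 88.9, 89.0, 101 and 105 CPM. The groups did not overlap, and *Pfkp* rose by 0.60 ± 0.17 (adjusted p = 0.00963), a call that held without any 1 library. At 3 weeks the male values were 69.6 to 97.5 CPM, still above all controls, and the difference of 0.45 ± 0.17 was not called (adjusted p = 0.0619). At 6 weeks the males had 47.3, 79.9 and 87.0 CPM, a difference of 0.13 ± 0.18 (adjusted p = 0.623) that became 0.40 (0.0446) without the 47.3 of replicate 4. In females the differences were 0.30 ± 0.18, 0.09 ± 0.18 and 0.14 ± 0.18, none of which was called.

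*Pgam2*, the muscle phosphoglycerate mutase (ENSMUSG00000020475, chr11:5751636-5753760), was called in no comparison with controls on the deposited scaling with all placed libraries. It was called higher in males at 1 week under scaling to all reads (0.65, adjusted p = 0.00992, limma). Males at 1 week ranged most widely, at 331, 385, 443 and 563 CPM against 315, 336 and 387 CPM in controls. The difference was 0.29 ± 0.15 (adjusted p = 0.142), and without 1 week replicate 1 it was 0.41 (0.0369). The other male differences were -0.08 and -0.19, and the female ones -0.27, -0.10 and -0.17. Without female control replicate 3 the first of these was called lower, at -0.37 (adjusted p = 0.0361). The female differences and the male one at 3 weeks changed sign under scaling to all reads, to 0.08, 0.25, 0.23 and 0.19.

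*Pkm*, which encodes the pyruvate kinase that makes pyruvate and ATP (ENSMUSG00000032294, chr9:59563364-59586663), was slightly lower in induced females, and its difference changed sign to 0.07, 0.05 and 0.11 at 1, 3 and 6 weeks under scaling to all reads. Female controls had 857, 998, 1069 and 1086 CPM. Females had 779, 805, 825 and 826 CPM at 3 weeks and 779, 786, 853 and 854 CPM at 6 weeks. These groups lay just apart, the lowest control at 857 CPM and the highest heart of 3 or 6 weeks at 854 CPM. Females at 1 week, at 762 to 892 CPM, overlapped the controls, and their difference of -0.28 was not called (adjusted p = 0.0606). The fall by 0.30 ± 0.11 (adjusted p = 0.0407) at 3 weeks was lost without any 1 of 7 libraries (highest adjusted p = 0.113), and that by 0.29 ± 0.11 (adjusted p = 0.0405) at 6 weeks without any 1 of 5 (0.111). The tables give 1 value for the gene, so the M1 and M2 splice forms were not separated. In males the differences were -0.06, -0.23 and -0.34, none of which was called.

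*Ldha* encodes the lactate dehydrogenase subunit of skeletal muscle and most proliferating cells (ENSMUSG00000063229, chr7:46490899-46505061) and was the member called higher at every week in both sexes. Male controls had 403, 418 and 448 CPM. Males had 598, 624, 648 and 790.3 CPM at 1 week, 511, 553, 568 and 606 CPM at 3 weeks and 555, 595 and 721 CPM at 6 weeks. Female controls had 504, 505, 543 and 547 CPM, and the induced females 577 to 743 CPM. Every induced heart lay above every control of its sex. In males *Ldha* rose by 0.65 ± 0.12 (adjusted p = 0.000399), 0.40 ± 0.12 (adjusted p = 0.0201) and 0.55 ± 0.13 (adjusted p = 0.00310) at 1, 3 and 6 weeks. In females it rose by 0.41 ± 0.10 (adjusted p = 0.00306), 0.26 ± 0.10 (adjusted p = 0.0412) and 0.31 ± 0.10 (adjusted p = 0.0145). Those at 1 and 6 weeks held without any 1 library in both sexes. The male call at 3 weeks was lost without control replicate 3 (0.37, adjusted p = 0.0919), control replicate 4 (0.40, 0.0584) or 3 weeks replicate 1 (0.36, 0.0571), and the female one without any 1 of the 8 libraries compared (highest adjusted p = 0.103).

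*Ldhb*, the heart-type lactate dehydrogenase subunit (ENSMUSG00000030246, chr6:142435672-142454586), fell. Female controls had 1036, 1222, 1238 and 1251 CPM. Females had 783, 792, 806 and 868 CPM at 1 week, 773, 805, 848 and 932 CPM at 3 weeks and 669.8, 747, 836 and 928 CPM at 6 weeks. The induced females all lay below the lowest control. *Ldhb* fell by 0.54 ± 0.13 (adjusted p = 0.00301), by 0.50 ± 0.13 (adjusted p = 0.00538) and by 0.58 ± 0.13 (adjusted p = 0.00112) in females, and these calls held without any 1 library. Male controls had 984, 1085 and 1153 CPM, and only at 6 weeks, with 714, 793 and 847 CPM, was the male fall called, by 0.45 ± 0.15 (adjusted p = 0.0337), a call lost without any 1 of 4 libraries (highest adjusted p = 0.107). None of the *Ldhb* calls passed under scaling to all reads, where the female differences were -0.20, -0.14 and -0.18 and the male difference at 1 week turned from -0.15 to 0.21. Reads of *Ldhb* and of its processed copy *Ldhb-ps*, which is listed as a gene of its own, may be divided unevenly between them.

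**Figure D3:**
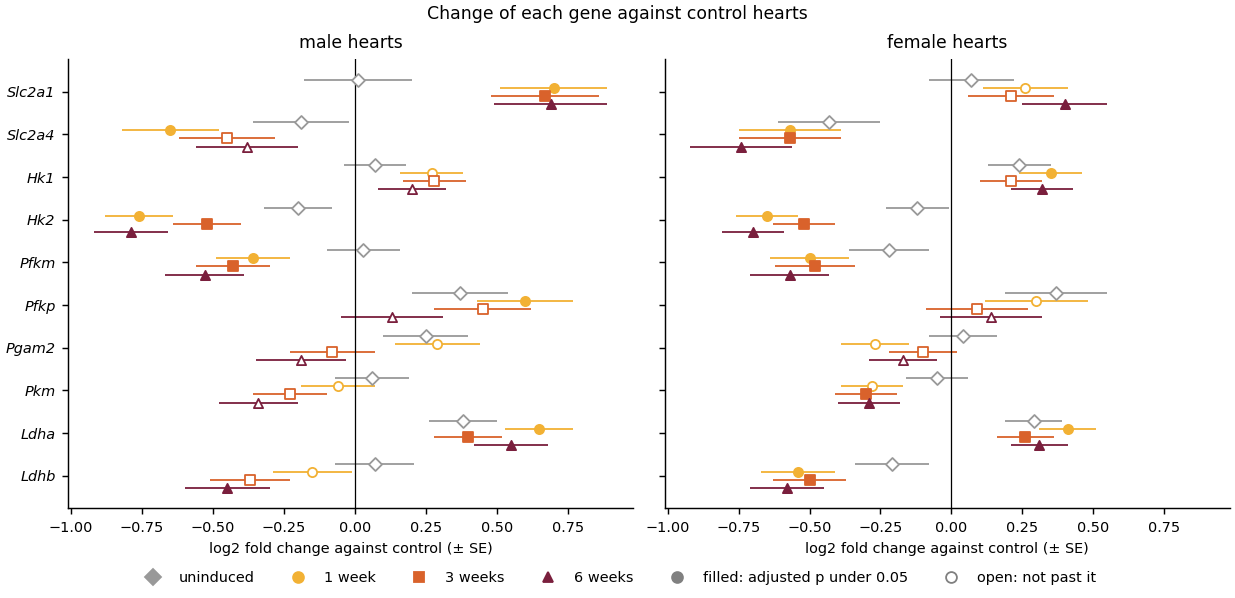
Log2 fold change against control of the 10 genes in uninduced hearts (grey diamonds) and at 1, 3 and 6 weeks (circles, squares and triangles) in each sex, with bars of 1 standard error and filled symbols where the adjusted p was under 0.05 (limma, deposited scaling). At every week *Hk2* and *Pfkm* lie below 0 and *Ldha* lies above 0 in both sexes, and all symbols of uninduced hearts are open.

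Of the 35 member calls against controls, 15 in males and 20 in females, 19 held without any 1 library (7 and 12). edgeR's quasi-likelihood test on the reads recovered from the tables called every one of the 35, with adjusted p of up to 0.0472.

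The balance between the paralogs of 1 step can be read within a library, where a ratio of 2 genes does not depend on scaling. A set of 6 pairs, each the more broadly expressed gene over the muscle- or heart-type gene, was compared with exact two-sided permutation tests, 36 in all, adjusted over the family. The ratio was higher than in controls in 35 of the 36 comparisons, and 25 passed an adjusted p of 0.05, 10 in males and 15 in females. Each of those had the smallest p its groups allow, 0.0286 (adjusted 0.0411). With 3 libraries against 3, the exact permutation test of males at 6 weeks cannot go below p = 0.10. In 32 of the 36 comparisons every induced heart lay above every control. The 3 weeks of a sex share their controls, and no other gene pairs were compared, so how often pairs in general separate this way is not known.

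The *Slc2a1*/*Slc2a4* ratio was 0.0309, 0.0410 and 0.0437 in male controls and 0.0707 to 0.130 in the 11 induced males. In females it was 0.0390 to 0.0477 in controls and 0.0719 to 0.113 after induction. Its mean log2 difference was 1.35 ± 0.25, 1.12 ± 0.16 and 1.07 ± 0.18 (SE) at 1, 3 and 6 weeks in males, and 0.83 ± 0.09, 0.78 ± 0.08 and 1.14 ± 0.17 in females. The exact p was 0.0286 in each except males at 6 weeks (0.10).

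The *Hk1*/*Hk2* ratio of CPM values was 0.435, 0.561 and 0.584 in males and 0.483, 0.557, 0.594 and 0.605 in females. In induced hearts the ratio was 0.788 to 1.13 in males and 0.878 to 1.20 in females, around 1. The log2 difference was 1.03 ± 0.14, 0.80 ± 0.17 and 0.99 ± 0.14 in males and 1.00 ± 0.08, 0.73 ± 0.08 and 1.02 ± 0.09 in females. The exact p was again 0.0286, or 0.10 in males at 6 weeks.

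The *Ldha*/*Ldhb* ratio rose from 0.371 to 0.425 in male controls to 0.575 to 1.01 in induced males, and from 0.408 to 0.488 in female controls to 0.675 to 0.938 in induced females. The log2 difference was 0.79 ± 0.16, 0.77 ± 0.07 and 1.01 ± 0.18 in males and 0.95 ± 0.09, 0.76 ± 0.08 and 0.89 ± 0.09 in females (exact p = 0.0286, or 0.10 in males at 6 weeks). *Pfkp*/*Pfkm* was higher by 0.96 ± 0.19, 0.88 ± 0.16 and 0.66 ± 0.24 in males and by 0.80 ± 0.11, 0.57 ± 0.11 and 0.71 ± 0.23 in females. The last of these overlapped the controls and missed the threshold (exact p = 0.0571, adjusted 0.0709).

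The enolases, *Eno1* of most tissues over *Eno3* of muscle, gave the highest of the differences at 6 weeks, 1.42 ± 0.13 in males (exact p = 0.10) and 1.35 ± 0.13 in females (exact p = 0.0286). Their ratio was 0.108 to 0.143 in controls and 0.203 to 0.404 after induction, with no overlap in either sex. *Pgam1*/*Pgam2* was the least regular of the pairs. In males it did not differ at 1 week (-0.04 ± 0.15, exact p = 0.83, with values of 0.169 to 0.255 against 0.189 to 0.219) and reached 0.65 ± 0.19 (exact p = 0.10) at 6 weeks. In females only the 0.71 ± 0.17 at 6 weeks passed (exact p = 0.0286).

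**Figure D4:**
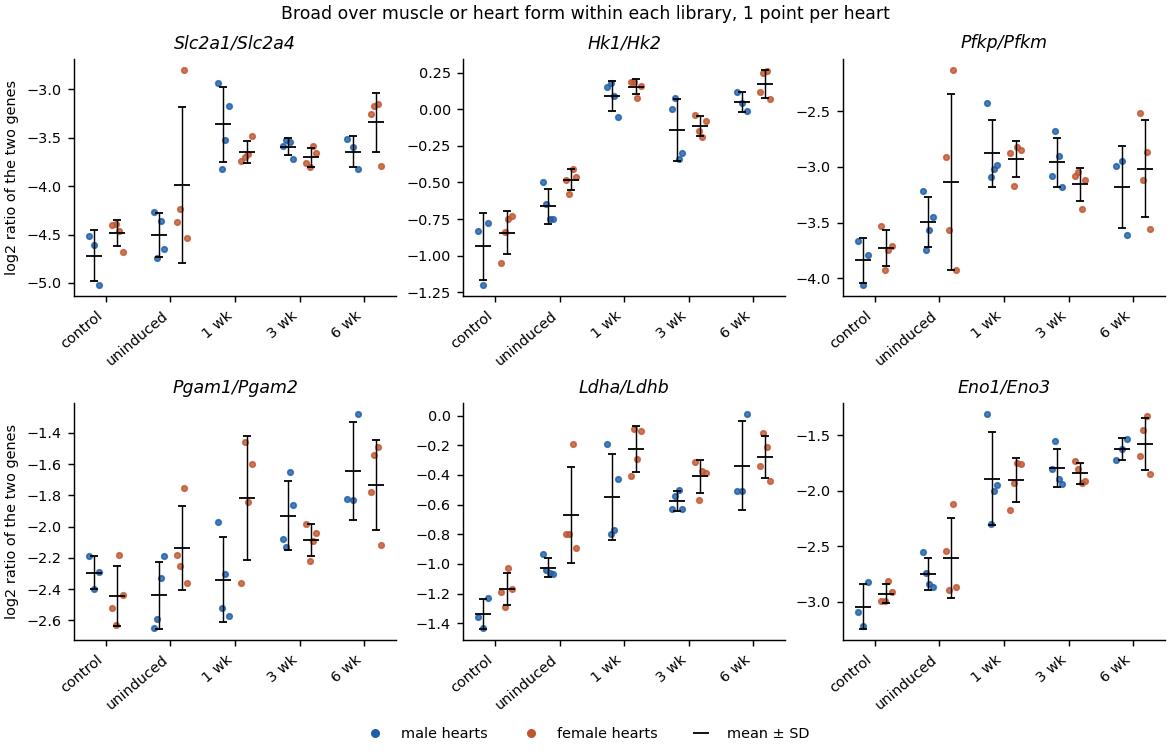
Log2 ratio of the broadly expressed to the muscle- or heart-type gene in every placed library, for 6 pairs by group, males in blue and females in orange, with 1 point a heart and bars at the mean ± SD of a group. In the pairs of *Slc2a1*, *Hk1*, *Ldha* and *Eno1* every induced heart of either sex lies above every control of that sex.

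Uninduced hearts, which carried the transgene and a low *Il11* level, were compared with controls next. No member was called by limma in either sex, where 0.597% of all genes were called in males and 2.87% in females. At an unadjusted p under 0.05 there were 2 members in males and 3 in females, counts given without the share of all genes. edgeR called 0 in each sex, and DESeq2 called 1 in each, *Ldha*. Under scaling to all reads 2 members were higher in females and 0 in males. *Ldha* stood at 516 to 579.9 CPM in uninduced males and 566 to 722 CPM in uninduced females, above every control of its sex, with differences of 0.38 ± 0.12 (adjusted p = 0.203) and 0.29 ± 0.10 (adjusted p = 0.130). The *Hk1*/*Hk2* ratio of uninduced hearts, 0.594 to 0.709 in males and 0.668 to 0.753 in females, lay above every control of the same sex. So did the *Ldha*/*Ldhb* ratio, at 0.477 to 0.524 in males and 0.541 to 0.875 in females. The ratios of uninduced hearts were not tested.

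The uninduced females did not vary alike. Replicate 3 had the highest *Il11* of its group (49.1 CPM), with 138 CPM of *Slc2a4*, below every induced heart, 19.3 CPM of *Slc2a1* and 120.4 CPM of *Pfkp*. Its *Slc2a1*/*Slc2a4* ratio of 0.143 was above that of any other placed library. Replicate 4 had the lowest *Il11* (15.5 CPM) and the highest *Slc2a4* (366 CPM), *Pfkm* (1068 CPM) and *Ldhb* (1334 CPM) of its group. Without replicate 4, *Slc2a4* at -0.63 (adjusted p = 0.0226) and *Pfkm* at -0.41 (0.0307) were called lower in uninduced females, and without replicate 3 no member was. Whether these values follow *Il11* was not tested.

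Against uninduced hearts, 4, 3 and 6 members were called at 1, 3 and 6 weeks in males, where 18.8%, 16.1% and 20.4% of genes were called, and 1, 1 and 2 in females (12.6%, 16.7% and 22.8%). These comparisons share the induced libraries with those against controls. *Slc2a1* rose in males at each week, by 0.68 ± 0.17 (adjusted p = 0.00926), 0.65 ± 0.17 (adjusted p = 0.0134) and 0.68 ± 0.19 (adjusted p = 0.0146), from 10.2 to 13.5 CPM in uninduced males. The second was lost without uninduced replicate 2 (0.59, adjusted p = 0.0518) and the third without 6 weeks replicate 4 (0.47, 0.104). *Pfkm* fell in males at each week, by 0.39 ± 0.12, by 0.45 ± 0.12 and by 0.55 ± 0.13 (adjusted p of 0.0345, 0.0159 and 0.00612), the first lost without any 1 of 5 libraries and the second without any 1 of 2. *Hk2* fell in females at each week, by 0.53 ± 0.11 (adjusted p = 0.00218), by 0.40 ± 0.11 (adjusted p = 0.0138) and by 0.57 ± 0.11 (adjusted p = 0.000518), from 202 to 292 CPM in uninduced females, the second lost without uninduced replicate 4 (-0.32, adjusted p = 0.0526) or 3 weeks replicate 3 (-0.37, 0.0512). On the deposited scaling *Ldha* was called in none of the 6 comparisons with uninduced hearts. Its differences were 0.26, 0.02 and 0.17 in males and 0.12, -0.02 and 0.02 in females. When scaled to all reads, *Ldha* was called higher at 1 week in both sexes. *Slc2a4* and *Pfkm* were called in none of the 3 female comparisons. Under scaling to all reads the male total over the 3 weeks went from 13 to 6, and leaving out 1 replicate number or library took it to between 4 and 13, while the female total of 4 went to between 2 and 13.

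Between the weeks no member was called in either sex by limma, edgeR or DESeq2. Among all genes 0.0177%, 0.165% and 0% were called in males for 3 against 1, 6 against 1 and 6 against 3 weeks, and 0.218%, 1.03% and 0% in females. At an unadjusted p under 0.05, limma gave 3, 4 and 1 members in males and 0, 0 and 0 in females, counts given without the share of all genes.

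The other genes of glucose metabolism were taken as lists and are given by counts. A call named below held without any 1 library unless stated, and among the named genes only *Pik3ca* changed sign under scaling to all reads. Of 15 tested further glycolytic enzymes, 4, 3 and 4 were called higher and 2, 2 and 1 lower in males at 1, 3 and 6 weeks, and 4, 3 and 4 higher and 2, 4 and 6 lower in females. Their median log2 difference at 6 weeks was 0.00 in males and -0.23 in females, against -0.01 and -0.02 over all genes, and these became 0.19 in males and 0.16 in females under scaling to all reads. Under that scaling 9, 5 and 4 were called higher and 1 lower at each week in males, and 9, 7 and 6 higher and 1, 1 and 2 lower in females. *Hk3*, a hexokinase found mainly in blood cells, rose by 1.31, 1.56 and 1.43 in females (adjusted p = 1.07e-06, 7.12e-08 and 1.89e-07) and by 1.20, 1.05 and 1.10 in males (adjusted p = 0.00510, 0.0167 and 0.0162), the male calls at 3 and 6 weeks being lost without control replicate 3 (0.84, adjusted p = 0.116, and 0.89, 0.0941) and that at 3 weeks also without 3 weeks replicate 1 (0.72, 0.0520). *Eno2*, the neuronal enolase, rose by 1.15, 1.31 and 1.11 in males and by 0.56, 1.05 and 0.72 in females, where the call at 1 week (adjusted p = 0.0446) was lost without any 1 of 13 libraries. *Eno1* rose by 0.62, 0.43 and 0.53 in males (adjusted p = 0.000169, 0.00497 and 0.00147) and by 0.27, 0.26 and 0.27 in females, where each call was lost without any 1 of 5 or 6 libraries. *Eno3*, the muscle enolase, fell by 0.53, by 0.81 and by 0.89 in males (adjusted p = 0.0355, 0.00368 and 0.00265, the first lost without any 1 of 3 libraries) and by 0.75, by 0.82 and by 1.08 in females (adjusted p = 0.000700, 0.000257 and 8.27e-06).

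Among the 7 other glucose transporters tested, 0, 0 and 3 were called higher and 1 lower at each week in males, and 1, 2 and 3 were higher and 0, 1 and 0 lower in females. *Slc2a12*, the gene of GLUT12, fell in males by 1.23, by 1.15 and by 1.33 (adjusted p = 1.39e-05, 3.18e-05 and 1.11e-05). In females its one call, a difference of -0.84 at 3 weeks (adjusted p = 0.0344), was lost without any 1 of 6 libraries. *Slc2a3*, the gene of the neuronal and leukocyte transporter GLUT3, was called only at 6 weeks, at 0.97 (adjusted p = 0.0134) in males, or 0.75 (0.0694) without 6 weeks replicate 4, and at 0.43 (adjusted p = 0.0307) in females, lost without any 1 of 5 libraries.

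Of 16 genes of insulin signalling and GLUT4 traffic, 1, 0 and 0 were called higher and 5, 1 and 3 lower in males, and 0 higher and 4, 5 and 6 lower in females. Their medians on the deposited scaling, -0.21 to -0.27, became -0.05 to 0.18 under scaling to all reads. The calls then were 2, 0 and 1 higher and 2, 1 and 1 lower in males, and 2, 4 and 5 higher and 0, 3 and 2 lower in females. *Irs1*, the insulin receptor substrate, fell by 1.60, by 1.57 and by 1.55 in males (adjusted p = 4.11e-06, 5.62e-06 and 1.26e-05) and by 1.03, by 1.62 and by 1.24 in females (adjusted p = 0.0391, 0.00194 and 0.00999, the first lost without any 1 of 5 libraries). *Pik3r1*, a regulatory subunit of PI3 kinase, fell in females at each week, by 0.74, by 1.00 and by 1.14 (adjusted p = 0.00138, 6.01e-05 and 8.78e-06), and in males at 1 week by 0.87 (adjusted p = 0.00833, or 0.0515 without control replicate 3). The female calls of *Pik3ca*, a catalytic subunit, at -0.23, -0.33 and -0.19, turned to 0.11, 0.02 and 0.20 under scaling to all reads.

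Regulators of glycolytic flux were split: of 11 tested, 4 were called higher at every week in both sexes, with 4, 4 and 3 lower in males and 2, 2 and 3 lower in females. *Myc*, a transcription factor, rose by 2.66, 1.85 and 2.18 in males (adjusted p = 2.42e-07, 2.20e-05 and 6.23e-06) and by 1.51, 1.41 and 1.60 in females (adjusted p = 0.000709, 0.00114 and 0.000254). *Hif1a*, the oxygen-regulated subunit of HIF-1, rose by 0.78, 0.79 and 0.61 in males (adjusted p = 0.00139, 0.00173 and 0.0158, the last lost without any 1 of 3 libraries) and by 1.00, 0.88 and 1.13 in females (adjusted p = 1.52e-05, 6.28e-05 and 2.06e-06). *Pfkfb4*, a bifunctional enzyme that sets the level of the phosphofructokinase activator fructose 2,6-bisphosphate, rose by 0.87, 0.96 and 1.18 in males and by 0.70, 1.01 and 0.91 in females. *Tigar*, which degrades that activator, fell by 0.73, by 0.52 and by 0.69 in males and was called in females only at 6 weeks, a fall by 0.48 (adjusted p = 0.00856).

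Of the 14 genes of pyruvate entry into mitochondria, 7, 7 and 9 were called lower in males, 7, 9 and 9 lower in females and 1 higher at every week. Under scaling to all reads 2, 1 and 6 were lower in males and 2, 2 and 3 in females. *Pdhb* and *Pdhx*, subunits of the pyruvate dehydrogenase complex, fell at every week in both sexes, by 0.82 and by 0.79 in males at 6 weeks (adjusted p = 8.10e-05 and 7.09e-06) and by 0.69 and by 0.50 in females at 6 weeks (adjusted p = 7.18e-05 and 0.00111). *Dlat*, the acetyltransferase subunit, fell by 0.55, by 0.41 and by 0.69 in males (adjusted p = 0.000337, 0.00511 and 7.30e-05) and by 0.42 in females at 3 and at 6 weeks (adjusted p = 0.0119 and 0.00860). *Pdk3*, a kinase that inactivates the complex, rose by 1.23, 0.70 and 1.01 in males (adjusted p = 1.01e-05, 0.00323 and 0.000181) and by 0.95, 0.68 and 0.86 in females (adjusted p = 0.00130, 0.0132 and 0.00186).

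Of 5 lactate transport genes, 1 was called higher at every week in both sexes, with 3, 1 and 2 lower in males and 1 lower at each week in females, or 0, 0 and 1 and 0, 1 and 0 lower under scaling to all reads. *Slc16a3*, the lactate exporter MCT4, rose by 1.71, 1.83 and 1.90 in males (adjusted p = 1.18e-05, 5.82e-06 and 7.06e-06) and by 1.61, 1.53 and 2.16 in females (adjusted p = 0.000132, 0.000197 and 2.40e-06). *Bsg*, the chaperone of these transporters, fell by 0.42, by 0.63 and by 0.78 in males (adjusted p = 0.0170, 0.00127 and 0.000306, the first lost without any 1 of 3 libraries) and by 0.64, by 0.72 and by 0.68 in females (adjusted p = 0.00170, 0.000554 and 0.000735).

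Of 12 glycogen genes, 1, 0 and 0 were called higher and 6, 3 and 4 lower in males, and 1, 1 and 2 higher and 3, 6 and 7 lower in females, and under scaling to all reads no more than 1 was lower at any week. *Phkg1*, the catalytic subunit of muscle phosphorylase kinase, fell by 0.98 in males at 1 week (adjusted p = 0.00135) and by 0.88 and by 1.04 in females at 1 and 6 weeks (adjusted p = 0.000547 and 6.46e-05). *Phka1*, its regulatory subunit, fell in females by 0.60, by 0.83 and by 0.62 (adjusted p = 0.00747, 0.000437 and 0.00409). *Pygm*, muscle glycogen phosphorylase, fell in females by 0.46 and by 0.57 at 3 and 6 weeks (adjusted p = 0.00748 and 0.000994), while the liver form *Pygl* rose in females by 0.70, 0.58 and 0.76 (adjusted p = 0.00188, 0.00695 and 0.000617).

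The 11 genes of the pentose phosphate and hexosamine branches were called in 1 direction, with 6, 5 and 3 higher in males, 6, 5 and 7 higher in females and 0 lower. *Gfpt2*, an entry enzyme of hexosamine synthesis, rose by 1.28, 1.61 and 1.94 in males (adjusted p = 0.000213, 2.15e-05 and 4.56e-06) and by 1.72, 1.43 and 1.97 in females (adjusted p = 8.71e-07, 8.35e-06 and 7.52e-08). *G6pdx*, the first enzyme of the pentose phosphate pathway, rose by 0.61, 0.85 and 1.12 in males (adjusted p = 0.00509, 0.000454 and 4.30e-05) and by 1.07, 0.95 and 1.01 in females (adjusted p = 1.06e-05, 3.84e-05 and 1.40e-05). *Tkt*, the transketolase of that pathway, rose by 0.46 in males (adjusted p = 0.00912) and 0.47 in females (adjusted p = 0.00132) at 6 weeks, and *Pgm3* of the hexosamine branch by 0.72 in females at 6 weeks (adjusted p = 0.000550). In uninduced females *Gfpt2* and *Hk3* were also called higher, at 0.79 (adjusted p = 0.0257) and 0.64 (adjusted p = 0.0191), calls lost without any 1 of 5 and of 3 libraries. Fibroblast and macrophage marker sums rose in the same libraries, and their part in these list counts was not tested.

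**Figure D5:**
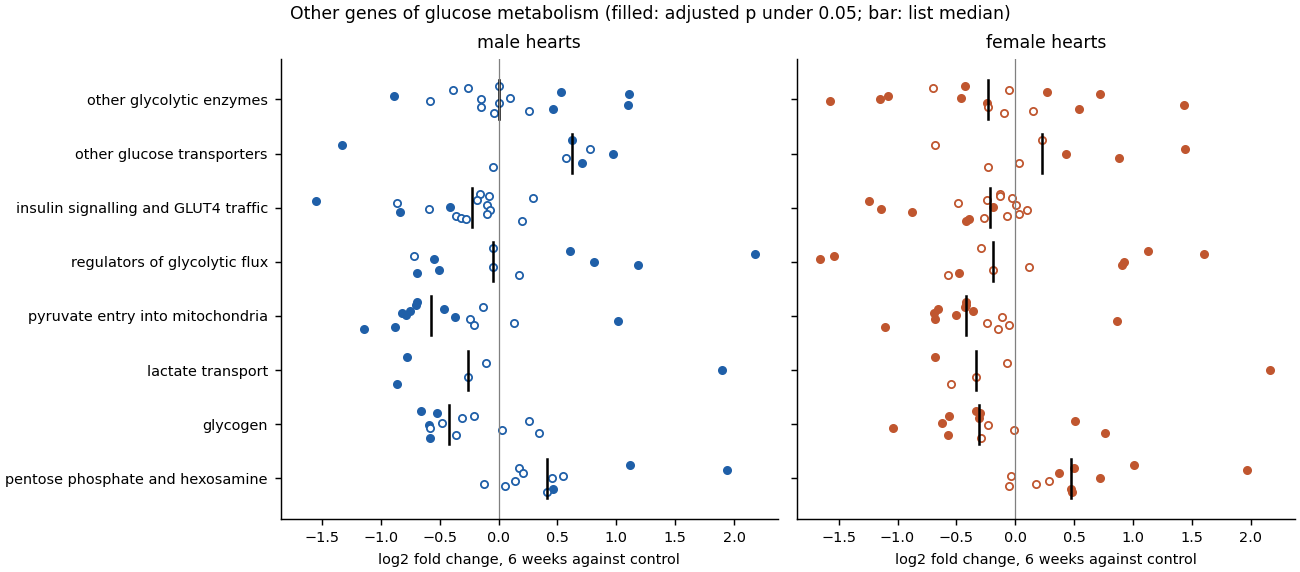
Log2 fold change at 6 weeks against control (limma, deposited scaling) of every tested gene of 8 lists in each sex, with 1 point a gene, filled where the adjusted p was under 0.05, and a bar at the list's median. The pentose phosphate and hexosamine list has no filled point below 0, and the pyruvate entry list has 9 of 14 called lower in each sex, or 6 in males and 3 in females under scaling to all reads.

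The genes whose levels tracked a member most closely are given as a description, over the 18 male and 20 female placed libraries. These libraries include every group, so the values reflect the differences between groups, shared depth and scaling. For *Slc2a4* the highest mean of the within-sex Pearson correlations of log2 values was 0.96, with *Kcnj11*, a subunit of the ATP-sensitive potassium channel. For *Pfkm* it was 0.94 with *Acadm*, a dehydrogenase of fatty acid oxidation, and for *Ldhb* 0.95 with *Slc25a4*, the mitochondrial ADP/ATP carrier. For *Hk2* it was 0.93 with *Rilpl1*, for *Ldha* 0.92 with *Cst3* and for *Slc2a1* 0.81 with *Carhsp1*.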

How the data were processed

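Poly(A) RNA from hearts was sequenced from strand-marking libraries, aligned to GRCm39 with STAR and counted per gene with featureCounts by the authors. How strand was treated in counting and how low genes were filtered are not given in the sources used here, so values of overlapping genes and of genes with processed copies are uncertain. The deposited values are a normalised signal per gene and library, close to CPM but rescaled between libraries: their column sums ran from 817395 to 1196278, and male and female tables were scaled separately, so tests stayed within a sex. Dividing by the value of 1 read gave whole reads for 100.0% of the values in every library, within 0.001.

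Groups were taken from the labels. Low genes were dropped unless 3 or more libraries reached 0.5, which left 16931 genes in males and 16956 in females. These were tested with limma 3.58.1 (trend) in R 4.3.3 on log2(value + 0.5), all groups of a sex in 1 fit, with Benjamini-Hochberg adjustment per comparison and a threshold of 0.05. limma was used in place of a count model because the values are normalised. Ratios of paralogs were tested by exact permutation (scipy 1.17.1). Alternatives were edgeR 4.0.16 and DESeq2 1.42.0 on the recovered reads, other pseudocounts (0.1 and 2), other filters, median-of-ratios scaling, a fold minimum of 1 (log2), fits of only the groups compared, a replicate block, and each replicate number left out. Scaling to all reads and the omission of each single library were added after seeing the data. The fits were tested on simulated data.

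The members, lists and tests were chosen with earlier results of these data known. All 10 members are described. From each list of further genes, up to 4 are named: those with the lowest adjusted p among genes called the same way in both sexes. A gene that met this rule is not reported here. Same-numbered libraries did not deviate together, with a mean residual correlation of 0.0132 in males (-0.134 to 0.256) and 0.0255 in females (-0.342 to 0.563), so the numbers were not taken to pair libraries. No pair of replicates agreed within sampling noise, the lowest chi-square per gene between replicates being 6.76. RefSeq promoter windows carry GRCm38.p6 coordinates, and gene positions are of GRCm39.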

Additional observations from a re-analysis of the deposited data

Results flagged for a closer look

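Within groups of 4 libraries, 9 of 80 groups of a member held a library whose gap to its nearest neighbour took up most of the group's range, where chance gives about 1 in 20. Low libraries were *Slc2a1* at 14.5 CPM in female 3 weeks replicate 1, *Slc2a4* at 249 CPM in male uninduced replicate 1 and at 177 CPM in male 1 week replicate 1, and *Hk1* at 176 CPM and *Pfkm* at 552 CPM in female 1 week replicate 4. *Pfkp* was low at 55.8 CPM in female 3 weeks replicate 3, and *Ldhb* at 1036 CPM in female control replicate 3. High libraries were *Pkm* at 1234 CPM in female uninduced replicate 4 and *Ldhb* at 938 CPM in male 3 weeks replicate 1.

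The 2 male libraries with contradictory labels enter no comparison, and some of their values lay above the range of the male controls. In the first, titled as 6 weeks after induction but described as a control, these were *Slc2a1* at 14.6 CPM, *Pfkm* at 1013 CPM, *Pkm* at 1128 CPM, *Ldha* at 463 CPM, *Ldhb* at 1156 CPM and *Il11* at 0.597 CPM. In the second, titled as a control but described as 6 weeks after induction, they were *Slc2a1* at 19.4 CPM, *Pfkp* at 83.8 CPM, *Ldha* at 502 CPM and *Il11* at 511 CPM. The *Il11* value of the first lay below the 407 to 819 CPM of the placed males at 6 weeks, and that of the second lay within this range. Neither library was given a condition here.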

How the results depend on the processing

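No member result crossed the threshold with the pseudocount, the filter on low values or edgeR. With a fold minimum of 1 on the log2 scale the count of member calls was 0 in every comparison with controls and with uninduced hearts, since no member moved that far. Fits of only the groups compared gave 7 calls in males at 3 weeks, 2 in males at 6 weeks and 2 against uninduced females. DESeq2 gave 7 in males at 3 weeks and 1 in uninduced hearts of each sex. Scaling to all reads gave 3 in males at 6 weeks, 6 against uninduced males, 3 and 5 in females at 3 and 6 weeks and 2 in uninduced females.

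The sign changed under scaling to all reads for *Pkm* in males (0.30 and 0.04 at 1 and 3 weeks), in females (0.07, 0.05 and 0.11) and in uninduced females (0.10), for *Ldhb* in males at 1 week (0.21), for *Pgam2* in males at 3 weeks (0.19) and in females (0.08, 0.25 and 0.23), and for *Hk2* in uninduced females (0.03). *Slc2a1* in uninduced males was -0.01 under edgeR and DESeq2.

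Leaving out 1 library or replicate number gave 3 to 7, 1 to 7 and 3 to 6 member calls in males at 1, 3 and 6 weeks, 3 to 8, 1 to 6 and 4 to 8 in females, 0 to 2 in uninduced females, and 4 to 13 and 2 to 13 against uninduced males and females. Without a replicate number the exact test of a ratio cannot go below p = 0.10, so the ratios past the threshold went from 25 to between 0 and 0. Differences that crossed 0 under such omissions, none of them called, ran from -0.14 to 0.05 for *Pkm*, -0.26 to 0.05 for *Ldhb* and -0.11 to 0.03 for *Pgam1*/*Pgam2* in males at 1 week, from -0.15 to 0.01 for *Pgam2* in males at 3 weeks, and from -0.03 to 0.40 and -0.02 to 0.25 for *Pfkp* in males and females at 6 weeks. In uninduced males they ran from -0.20 to 0.14 for *Slc2a1*, -0.01 to 0.13 for *Hk1* and -0.03 to 0.09 for *Pfkm*, and in uninduced females from -0.06 to 0.24 for *Slc2a1*, -0.07 to 0.13 for *Pgam2* and -0.17 to 0.02 for *Pkm*.

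With the replicate number as a block, member calls were 5, 3 and 5 in males and 6, 5 and 8 in females at 1, 3 and 6 weeks. With the block, no ratio passed its threshold (0), where exact sign flips of the pairs cannot go below p = 0.25 in males and 0.125 in females, and *Pgam1*/*Pgam2* in males at 1 week was 0.02. The causes of the other changes were not tested.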

Other observations

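The 2 male libraries with contradictory labels also had values within or below the ranges of the male controls. The first, titled as 6 weeks but described as a control, had 341 CPM of *Slc2a4*, 189 CPM of *Hk1*, 299.8 CPM of *Hk2*, 67.6 CPM of *Pfkp* and 377 CPM of *Pgam2*, of which *Hk2* lay below the controls' 312 CPM. The second, titled as a control but described as 6 weeks, had 209 CPM of *Slc2a4*, 150.3 CPM of *Hk1*, 169 CPM of *Hk2*, 468 CPM of *Pfkm*, 242 CPM of *Pgam2*, 606 CPM of *Pkm* and 629.5 CPM of *Ldhb*, each of them below every male control. Its *Hk1*, *Hk2*, *Pfkm*, *Pgam2*, *Pkm* and *Ldhb* values also lay below those of all 3 placed males at 6 weeks.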
